A study of Populus trichocarpa with 378 samples.

Results

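MYB002 (Potri.001G258700), MYB003 (Potri.001G267300), MYB020 (Potri.009G061500) and MYB021 (Potri.009G053900) are MYB transcription factors of the black cottonwood Populus trichocarpa. They were taken by these identifiers from the count table and make up 4 of its 41334 genes. The identifiers place MYB002 and MYB003 on chromosome 1 and MYB020 and MYB021 on chromosome 9. RNA was sequenced from stem-differentiating xylem, the soft tissue under the bark in which new wood forms, in 378 libraries of wildtype and transgenic trees of the genotype Nisqually-1, grown in a greenhouse for 6 months. Each library was made from several clonal trees of the same line, harvested together as a pool. Trees were planted and harvested in 6 batches (NSF1 to NSF6), each with 3 wildtype pools and between 4 and 12 transgene constructs, 45 in all. Per the labels, the transgenes were under the xylem-specific promoter of a 4-coumarate:CoA ligase gene. The type of knockdown construct is not given for the 4 constructs described next.

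Of the 45 constructs, 4 were directed at these genes. Construct i53 was made for the knockdown of MYB002 and MYB021 (batch NSF6; 9 pools, from lines 5, 7 and 10). Construct i56 was made for MYB003 and MYB020 (batch NSF5; 8 pools, from lines 3, 8 and 10). Construct a52 was made for MYB021 (batch NSF5; 3 pools, all of line 7), and a54 for MYB003 (batch NSF5; 3 pools, all of line 11). A difference of a52 or a54 from wildtype is therefore that of a single transgenic line. The other 41 constructs were directed at lignin genes or at other regulators. Each construct was compared with the 3 wildtype pools of its own batch.

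These factors are known as switches of wood formation. In Arabidopsis, the related MYB factors stand directly below the NAC factors that start secondary wall deposition, and they bind short MYB elements in the promoters of genes for cellulose, xylan and lignin. In Populus, MYB002 and MYB021 form a pair of closely related copies, and MYB003 and MYB020 form the other pair. When overproduced in Arabidopsis, these Populus factors turn on secondary wall genes in cells that normally lack such walls. How reads that match both copies of a pair were counted is not given in the sources used here, so the division of counts within a pair is uncertain and the sum over the pair is given beside it.

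Levels are counts per M counts in genes (CPM) after scaling by the trimmed mean of M values (TMM), where M counts are 1e+06 counts, and differences are log2 fold changes of construct over wildtype from edgeR's quasi-likelihood test, with p-values adjusted over all genes tested by the Benjamini-Hochberg method and 0.05 as the threshold. Library totals ranged from 2.12 to 93.5 M counts with a median of 15.7 M, and from 4.98 to 27.6 M in the 4 constructs directed at the members and their wildtype. Some libraries stood apart. The correlation of a library's log2 CPM with the median of the other libraries of its group had a median of 0.977 over all libraries, but was 0.66 in pool 8-2 of i21 and between 0.68 and 0.72 in all 3 pools of line 7 of i19. It was 0.94 to 0.96 in the wildtype pools of NSF5 and 0.97 to 0.99 in those of NSF6. The files do not pair identifiers with gene names, so the tissue could not be checked against markers. Nothing in the labels says that wildtype pools came from separate experiments, so the p-values measure the spread between pools, some of which share a line.

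In i53 the clearest change was in a gene the construct was not directed at. MYB003 rose in i53 and had between 18.4 and 26.4 CPM in the 9 pools, with a median of 20.7 CPM, against 10.4, 10.5 and 11.9 CPM in the NSF6 wildtype pools. Every i53 pool lay above every wildtype pool. The log2 fold change was 1.01 ± 0.11 (SE; 95% interval 0.77 to 1.26), with an adjusted p of 0.00034. Across all genes, 6.11% of 26601 passed the threshold in i53 in either direction, and 3.62% passed it as higher. The rise rested on 159 to 510 reads per pool in i53 and on 91 to 289 in wildtype. In bulk tissue, a change in the number of cells that express a gene and a change in RNA per cell cannot be told apart. When all constructs of NSF6 were fitted together, the fold change was again 1.01, but the adjusted p was 0.39, and it was 0.20 when i15 was left out of that fit.

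The 2 genes that i53 was directed at were lower in the mean without passing the test. MYB021 had a median of 24.99 CPM in i53 (range 18.5 to 50.3 CPM), against 32.3, 39.0 and 48.8 CPM in wildtype. Its log2 fold change was -0.46 ± 0.29 (SE; 95% interval -1.09 to 0.17; adjusted p = 0.40). MYB002 had a median of 7.34 CPM in i53 (range 6.64 to 8.57 CPM), against 7.97, 8.72 and 9.93 CPM in wildtype, and its log2 fold change was -0.23 ± 0.11 (SE; 95% interval -0.45 to -0.0014; adjusted p = 0.23). The MYB002 ranges overlapped only through line 7. MYB020, the close copy of MYB003, had a median of 4.46 CPM in i53 (range 3.04 to 6.66 CPM), against 3.15, 4.27 and 5.48 CPM in wildtype. Its log2 fold change was 0.15 ± 0.23 (SE; 95% interval -0.34 to 0.63; adjusted p = 0.77).

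**Figure D1:**
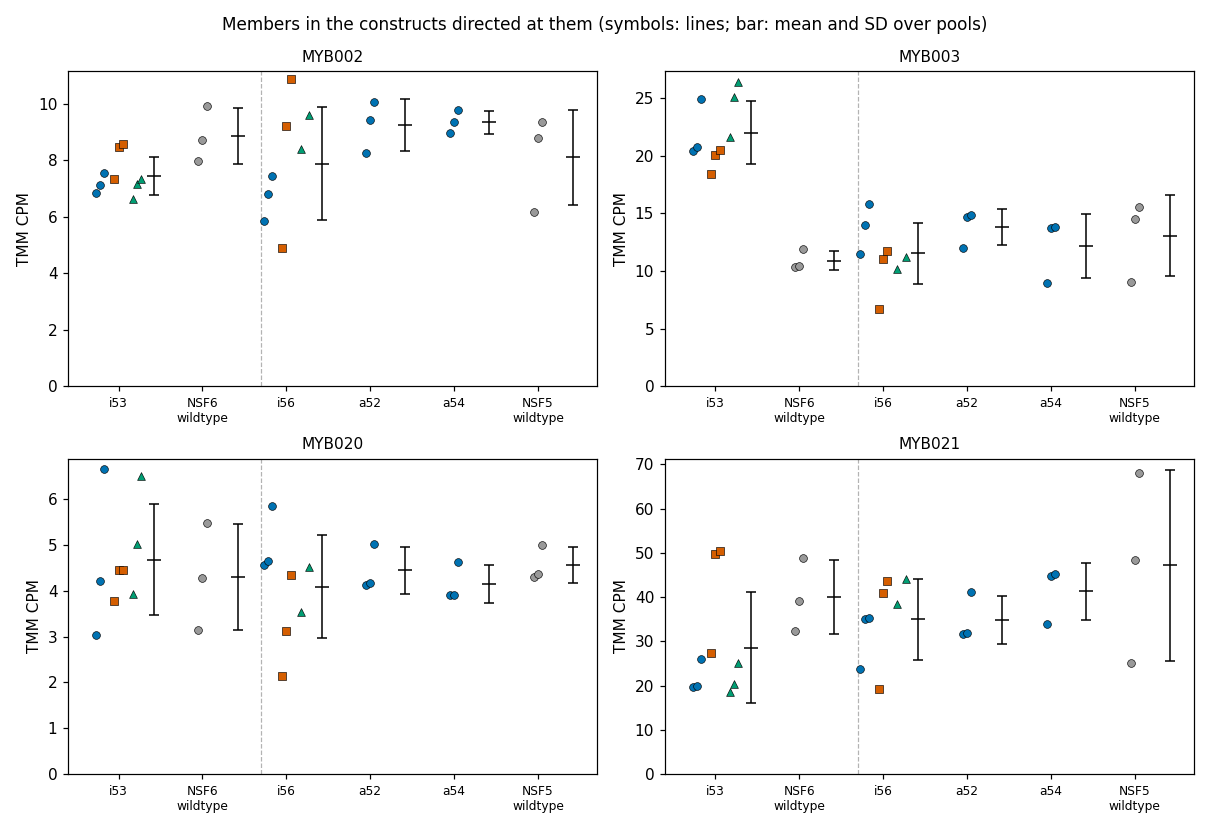
TMM CPM of each member in the pools of i53 and NSF6 wildtype (left of the dashed line) and of i56, a52, a54 and NSF5 wildtype (right of it); symbols mark lines in number order (5, 7 and 10 in i53; 3, 8 and 10 in i56) and the bars give mean and SD over pools. MYB003 in i53 lies between 18.4 and 26.4 CPM, above its wildtype pools at 10.4 to 11.9 CPM, while in the other panels the groups overlap.

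The sum over MYB003 and MYB020 does not depend on how reads were divided within the pair, if each shared read was assigned to a single copy. It would change if shared reads were left out or counted for both copies, which is not known. The sum was 22.2 to 31.6 CPM in i53 and 13.6 to 16.2 CPM in NSF6 wildtype, with no overlap. The sum over MYB002 and MYB021 was 25.6 to 58.8 CPM in i53 and 41.01 to 58.8 CPM in wildtype, and these ranges overlapped. The log2 ratio of MYB003 to MYB020 averaged 2.26 in i53 and 1.37 in wildtype, a difference of 0.89. The 2-sided exact permutation p was 0.0091, the smallest that 9 pools against 3 allow, and 0.073 when adjusted over the 8 ratio tests. The pools of a line are not independent, and with the mean of each line as 1 value the exact permutation p was 0.10, the smallest that 3 lines against 3 pools allow (adjusted p = 0.40). The log2 ratio of MYB002 to MYB021 averaged -1.83 in i53 and -2.16 in wildtype (exact permutation p = 0.27; adjusted 0.55).

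Within i53, low target levels were found in lines 5 and 10 but not throughout line 7. MYB021 had 26.1, 19.9 and 19.7 CPM in the pools of line 5 and 20.3, 18.5 and 24.99 CPM in those of line 10, all below the lowest wildtype pool at 32.3 CPM. Line 7 had 49.7, 27.5 and 50.3 CPM, so that 1 pool was below wildtype and 2 were above it. MYB002 was divided in the same way against the wildtype pools, but the values of line 7 overlapped those of line 5. It had 6.86, 7.15 and 7.57 CPM in line 5 and 6.64, 7.15 and 7.34 CPM in line 10, below all wildtype pools, and 8.57, 7.35 and 8.46 CPM in line 7, within or below their range. Of all genes in the batch, 11.9% had all pools of line 5 below all wildtype pools. The share was 15.1% in line 10 and 15.7% in line 7, so lying below wildtype in this way was not rare.

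The fold change of MYB021 without line 7 was -0.88 (adjusted p = 0.013), and against wildtype the single lines gave -0.84 in line 5 (adjusted p = 0.049), -0.91 in line 10 (adjusted p = 0.026) and 0.10 in line 7 (adjusted p = 0.85). These single-line comparisons were chosen after seeing the data. With all 3 lines in the fit, 6.11% of 26601 genes passed in i53. The numbers of genes called in line 5 alone and without line 7 are given with the alternatives of processing. The test across the 3 lines gave an adjusted p of 0.099 for MYB021, whose line means spanned 1.0025 on the log2 scale, and 0.0915% of genes passed that test. The other members spanned 0.21 (MYB002), 0.32 (MYB003) and 0.29 (MYB020) between the lines, with adjusted p of 0.68, 0.37 and 0.85.

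MYB003 was high in every line of i53, also in line 7, whose target levels were nearest those of wildtype. Its pools had 20.7, 20.4 and 24.9 CPM in line 5, 20.0, 20.5 and 18.4 CPM in line 7, and 26.4, 25.1 and 21.6 CPM in line 10. The line means were 202%, 180% and 223% of the wildtype mean. Each line taken alone passed the test, with log2 fold changes between 0.85 and 1.16. Lying above all wildtype pools was not rare in these lines. Of 25151 genes in the batch, 2832 did so in line 5, 3987 in line 7 and 3673 in line 10.

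Construct i56 was directed at MYB003 and MYB020. MYB003 had a median of 11.4 CPM in i56 (range 6.70 to 15.8 CPM), against 15.6, 9.05 and 14.5 CPM in the NSF5 wildtype pools. MYB020 had a median of 4.43 CPM in i56 (range 2.15 to 5.85 CPM), against 5.01, 4.36 and 4.29 CPM in wildtype. The groups overlapped for both. The log2 fold change was -0.19 ± 0.23 for MYB003 (SE; 95% interval -0.70 to 0.31; adjusted p = 0.79) and -0.18 ± 0.26 for MYB020 (SE; 95% interval -0.74 to 0.39; adjusted p = 0.84). Few genes of any kind passed in this comparison, 0.00744% of 26894. The intervals leave room for a fall of MYB003 by up to 0.70 on the log2 scale.

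Within i56 the mean target levels differed between lines, but not beyond the spread between pools. MYB020 had 5.85, 4.56 and 4.66 CPM in line 3, 2.15, 4.35 and 3.11 CPM in line 8, and 4.51 and 3.53 CPM in line 10. MYB003 had 11.5, 14.0 and 15.8 CPM in line 3, 11.1, 6.70 and 11.7 CPM in line 8, and 10.2 and 11.2 CPM in line 10. The line means spanned 0.65 for MYB020 and 0.49 for MYB003 on the log2 scale (adjusted p = 0.47 and 0.48), and 0.0324% of genes passed the test across these lines. The genes outside the target pair did not pass in i56 either. MYB021 had a log2 fold change of -0.44 ± 0.29 (SE; adjusted p = 0.59), and MYB002 of -0.05 ± 0.24 (SE; adjusted p = 0.96).

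In a52, directed at MYB021 alone, MYB021 had 41.1, 31.8 and 31.7 CPM, against 48.4, 25.1 and 68.1 CPM in NSF5 wildtype. All a52 pools lay inside the wildtype range. The log2 fold change was -0.44 ± 0.32 (SE; 95% interval -1.19 to 0.31; adjusted p = 0.80). In a54, directed at MYB003 alone, MYB003 had 13.8, 8.94 and 13.8 CPM, against 15.6, 9.05 and 14.5 CPM in wildtype. Its log2 fold change was -0.12 ± 0.26 (SE; 95% interval -0.72 to 0.49; adjusted p = 0.86). Neither construct had any gene past the threshold in edgeR (0% of 25165 in a52 and 0% of 25223 in a54), with 1853 and 3860 genes at an unadjusted p under 0.05, while DESeq2 called 68 in a52 and 683 in a54.

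The spread of the NSF5 wildtype bears on all 3 of these constructs. Pool 2 of that wildtype was the lowest of the 3 in MYB002 (6.17 CPM), MYB003 (9.05 CPM) and MYB021 (25.1 CPM), and 13.0% of genes in it differed by more than 2-fold from the median of the other wildtype pools of its batch. Without it, MYB021 in a52 gave a log2 fold change of -0.75 (adjusted p = 0.095), and 272 genes passed in a52, against 0 of 25165 with all pools. This was the largest fall among 12 alternatives of processing and left-out pools. Over these, MYB021 in a52 ran from -0.75 to -0.083 and passed in none. In all, none of the 6 combinations of a construct and its target passed the test with edgeR over all pools.

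Where 2 constructs share a target, they were compared directly. For MYB003, the log2 difference of i56 minus a54 was -0.08 ± 0.23 (SE; 95% interval -0.57 to 0.40; adjusted p = 0.87), and 0% of 27463 genes passed in edgeR, with 4180 at an unadjusted p under 0.05. The change of MYB021 in i53 against NSF6 wildtype differed from that in a52 against NSF5 wildtype by -0.04 (95% interval -1.08 to 1.01; adjusted p = 0.99). In the same interaction test, in which 0.559% of genes passed, MYB003 differed by 0.93 (95% interval 0.46 to 1.40; adjusted p = 0.080), and by 1.14 (adjusted p = 0.015) when wildtype pool 2 of NSF5 was left out. An interval of this width for MYB021 does not show that the constructs acted alike.

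Across the other 41 constructs, the members rarely passed the test, which does not show that they were near wildtype. Their log2 fold changes ran from -1.27 (MYB021 in i15) to 0.45 (MYB003 in a44). A single one of the 164 combinations passed the test, and over all genes 5.34% of the combinations of gene and construct passed. This was MYB021 in o66, a construct for the knockdown of CAD1 and the overexpression of CAD2, which encode cinnamyl alcohol dehydrogenases of the last step of monolignol synthesis. MYB021 had a median of 35.6 CPM in o66 (range 34.6 to 40.5 CPM, 8 pools), against 42.1 to 49.5 CPM in the 3 NSF3 wildtype pools, with no overlap. The log2 fold change was -0.30 ± 0.06 (SE; adjusted p = 0.0041), in a comparison in which 16.6% of genes passed as lower. When the pools of a line were summed, the adjusted p was 0.066, and when all groups of NSF3 were fitted together it was 0.27. Construct o65 of the same batch has the same targets by its label and did not repeat the call. Its 7 pools had 28.6 to 49.3 CPM of MYB021 and overlapped wildtype.

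MYB021 was the member whose sign was the most uniform. Its fold change was below 0 in 37 of the 41 constructs, with a median of -0.22 on the log2 scale, against 28 for MYB002 (median -0.07), 24 for MYB003 (median -0.07) and 28 for MYB020 (median -0.09). Counted from mean log2 CPM over 25797 genes, the median gene was lower in 21 of 41 constructs, and 1.22% of genes were lower in at least as many as MYB021. The same share was 15.9% for MYB002, 31.3% for MYB003 and 19.2% for MYB020. Constructs of a batch share their 3 wildtype pools, so these are not 41 separate comparisons. By batch, MYB021 was lower in 3 of 4 constructs in NSF1 and 9 of 12 in NSF2. It was lower in all 7 in NSF3, all 4 in NSF4, all 8 in NSF5 and all 6 in NSF6.

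**Figure D2:**
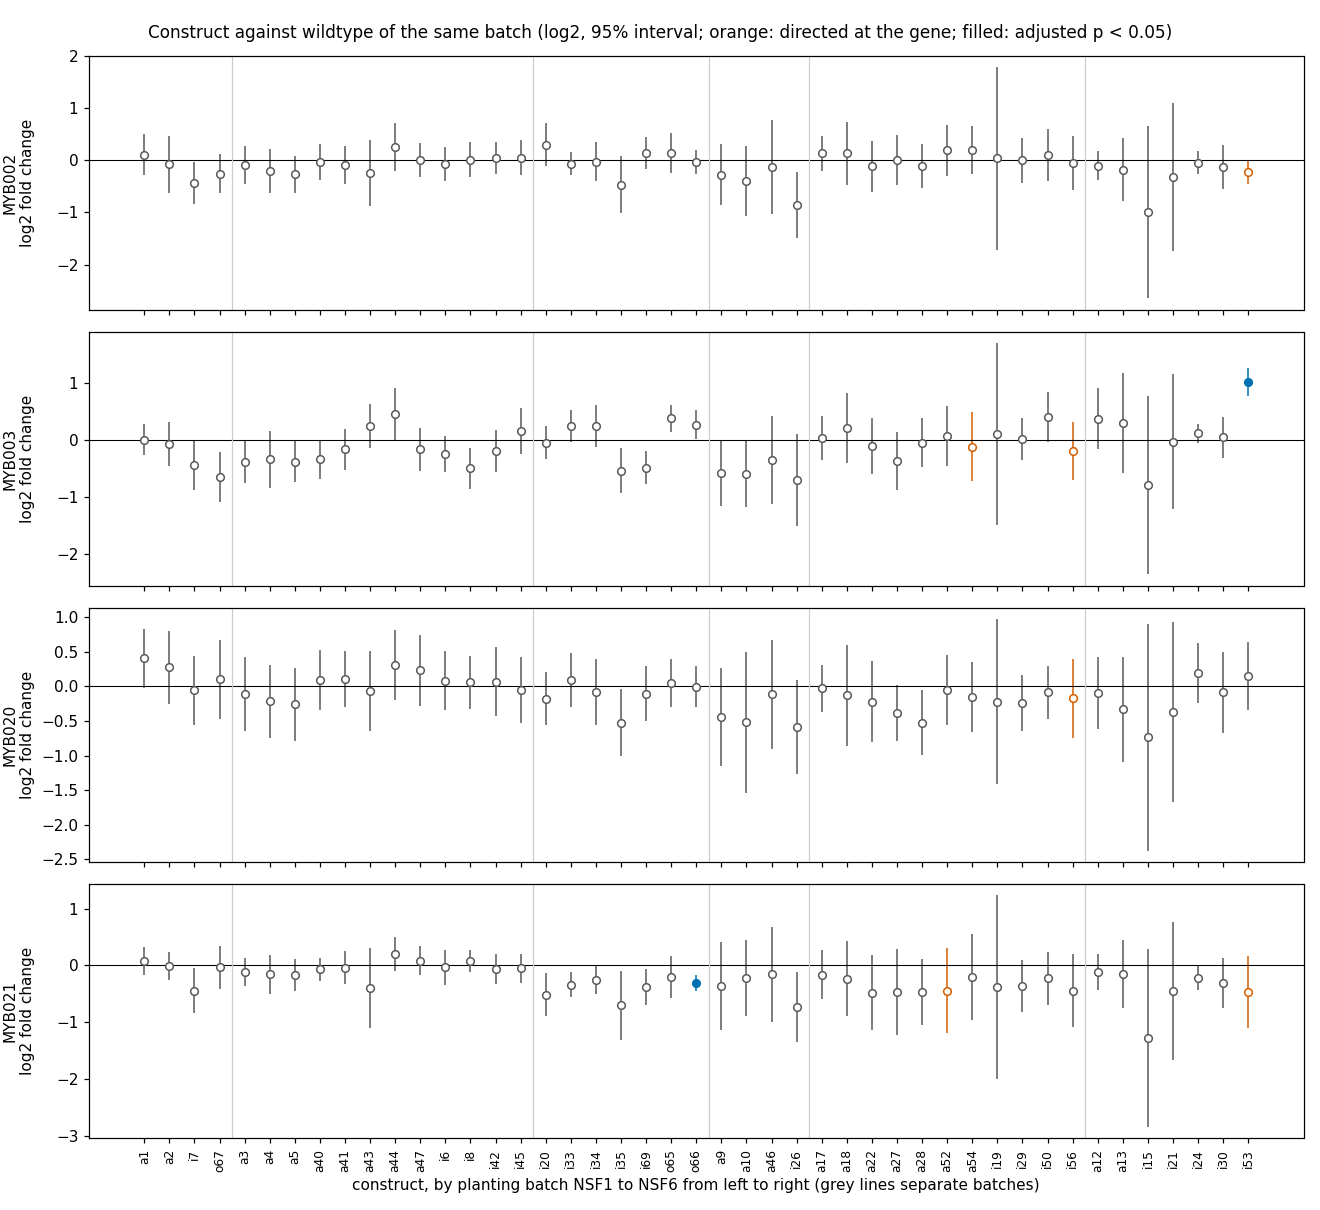
Log2 fold change of each member in 45 constructs against the wildtype of the same batch, with the 95% interval; orange marks constructs directed at the gene and filled points an adjusted p under 0.05. The filled points are MYB003 in i53 at 1.01 and MYB021 in o66 at -0.30, and the widest intervals are those of i15, i19 and i21.

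Low levels of all 4 members together were found in a few constructs, in some of them in a single line or pool. In i35, each of the 3 lines had 3 or 4 members below all wildtype pools. In these lines, 16.5% to 31.3% of all genes were below. Construct i19 was directed at HCT1 and HCT6, genes of hydroxycinnamoyltransferases of the monolignol pathway, and had 12 pools from lines 4, 7, 8 and 15. In line 7, MYB021 had 3.69, 2.12 and 4.16 CPM and MYB002 had 1.02, 0.16 and 0.67 CPM. MYB003 had 1.71, 0.74 and 1.93 CPM there, and MYB020 had 1.43, 0.65 and 0.59 CPM. The line means were 7.04%, 7.63%, 11.2% and 19.6% of the NSF5 wildtype means for MYB021, MYB002, MYB003 and MYB020, from 2 to 56 reads per pool and gene.

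In the other lines of i19 the members stood near or above wildtype. MYB021 had 31.9 to 58.4 CPM and MYB003 had 12.4 to 21.1 CPM in lines 4, 8 and 15, and MYB003 lay above all wildtype pools in line 8. Without line 7, the log2 fold changes of i19 were 0.43 for MYB002 and 0.49 for MYB003, each with an adjusted p above 0.48. No member passed in i19 as a whole (log2 fold changes of 0.03 for MYB002, 0.10 for MYB003, -0.22 for MYB020 and -0.39 for MYB021), and 0% of 27933 genes passed in edgeR, with 1317 at an unadjusted p under 0.05 and 60 called by DESeq2. The low level of line 7 moved with a wider difference, since 33.05% of genes in its batch were below all wildtype pools in all of its pools. Its part in the result was not tested.

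Line 3 of i15 was low in the same way. Construct i15 was directed at 4CL3 and 4CL5, genes of 4-coumarate:CoA ligases. In line 3, MYB021 had 9.71, 0.91 and 12.7 CPM and MYB003 had 4.32, 0.23 and 4.28 CPM. In NSF6 wildtype, MYB021 had 32.3 to 48.8 CPM and MYB003 had 10.4 to 11.9 CPM. MYB002 was at 19.3% and MYB020 at 21.96% of the wildtype mean in that line. Lines 1 and 2 had 19.1 to 34.04 CPM of MYB021.

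For i15 as a whole the log2 fold changes were -0.998 (MYB002), -0.79 (MYB003), -0.73 (MYB020) and -1.27 (MYB021), with adjusted p between 0.14 and 0.40, in a comparison in which 56.2% of genes passed. Without line 3 they were -0.29, -0.16, -0.01 and -0.63, and again none passed. When all groups of NSF6 were fitted together, MYB002 (adjusted p = 0.046) and MYB021 (adjusted p = 0.010) passed in i15. In line 3, 38.8% of genes were below all wildtype pools. Pool 3-2 had 8.21 M counts and between 1 and 8 reads of each member.

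In i35, directed at CAD1 and CAD2, line 7 had between 36.6% (MYB021) and 54.3% (MYB003) of the wildtype mean of the members. MYB021 had 15.3, 14.2 and 19.7 CPM in line 7, 31.7 to 35.5 CPM in lines 1 and 15, and 42.1 to 49.5 CPM in NSF3 wildtype. MYB003 had 5.47, 5.41 and 6.95 CPM in line 7, 6.50 to 9.62 CPM in lines 1 and 15, and 10.0 to 11.7 CPM in wildtype. For i35 as a whole, the log2 fold changes were -0.47 (MYB002), -0.54 (MYB003), -0.52 (MYB020) and -0.70 (MYB021), with adjusted p of 0.20, 0.056, 0.12 and 0.095. In this comparison 19.5% of genes passed. All 4 members passed when the groups of NSF3 were fitted together, with adjusted p between 0.0027 and 0.039.

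**Figure D3:**
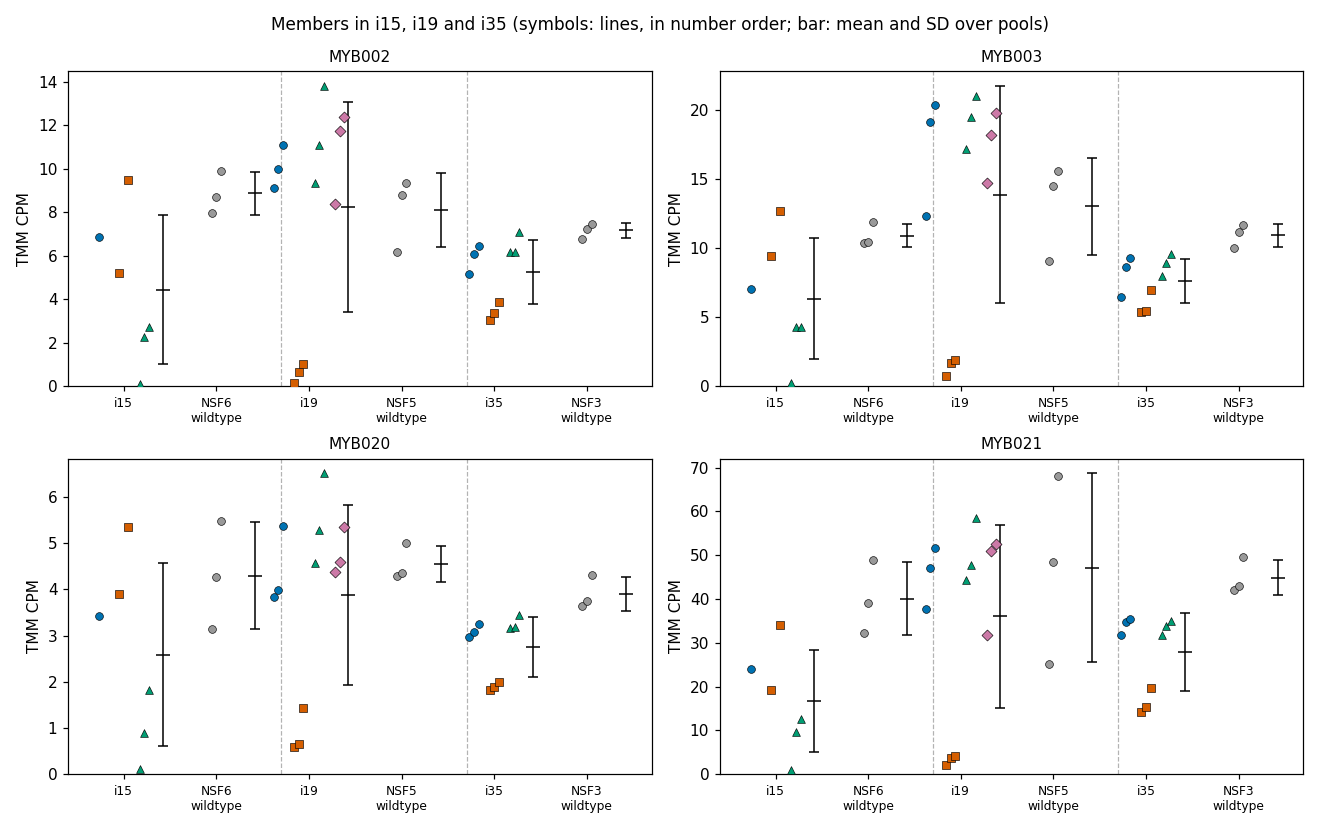
TMM CPM of each member in the pools of i15, i19 and i35, each left of the wildtype of its batch; symbols mark lines in number order (1, 2 and 3 in i15; 4, 7, 8 and 15 in i19; 1, 7 and 15 in i35) and the bars give mean and SD over pools. Line 7 of i19 lies between 2.12 and 4.16 CPM in MYB021, under its wildtype pools at 25.1 to 68.1 CPM.

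Single pools were low as well. Pool 8-2 of i21, a construct for CCoAOMT3, had 1 read of MYB002, 7 of MYB003, 1 of MYB020 and 21 of MYB021, while the other 7 pools of i21 had 22.7 to 41.4 CPM of MYB021. In i21, 0% of 27045 genes passed in edgeR, with 1136 at an unadjusted p under 0.05 and 113 called by DESeq2. With pool 8-2 left out, the log2 fold change of MYB021 was -0.27, against -0.45 with it, and no member passed either way. Pool 14-2 of a10, a construct for C4H1, was the only library with 0 reads of a member. These were of MYB020, and the count allows up to 1.28 CPM by counting error (3 reads). In that pool the 10 most abundant genes held 64.9% of counts, and it had 11 reads of MYB002, 14 of MYB003 and 31 of MYB021. Construct i26, directed at CCR2, a cinnamoyl-CoA reductase gene, had the lowest mean MYB002 of all groups, 3.79 ± 1.22 CPM (SD, n = 9), against 7.02 ± 2.46 CPM (SD, n = 3) in NSF4 wildtype. Its log2 fold changes were -0.86 (MYB002), -0.70 (MYB003), -0.59 (MYB020) and -0.73 (MYB021), with adjusted p between 0.31 and 0.46.

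By line, 104 lines had 3 pools and could be set against the 3 wildtype pools of their batch. All pools lay below all wildtype pools in 10 lines for MYB002, 22 for MYB003, 13 for MYB020 and 23 for MYB021. They lay above in 4, 10, 1 and 2 lines for the same genes. Over all genes and lines, 12.2% of combinations lay below and 12.4% above. The members together made 68 of 416 combinations below and 17 of 416 above. All 4 members were below in 4 lines, namely line 3 of i15, line 7 of i19 and lines 1 and 7 of i35, and in these lines between 16.5% and 38.8% of all genes were below. This count was chosen after seeing the data.

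**Figure D4:**
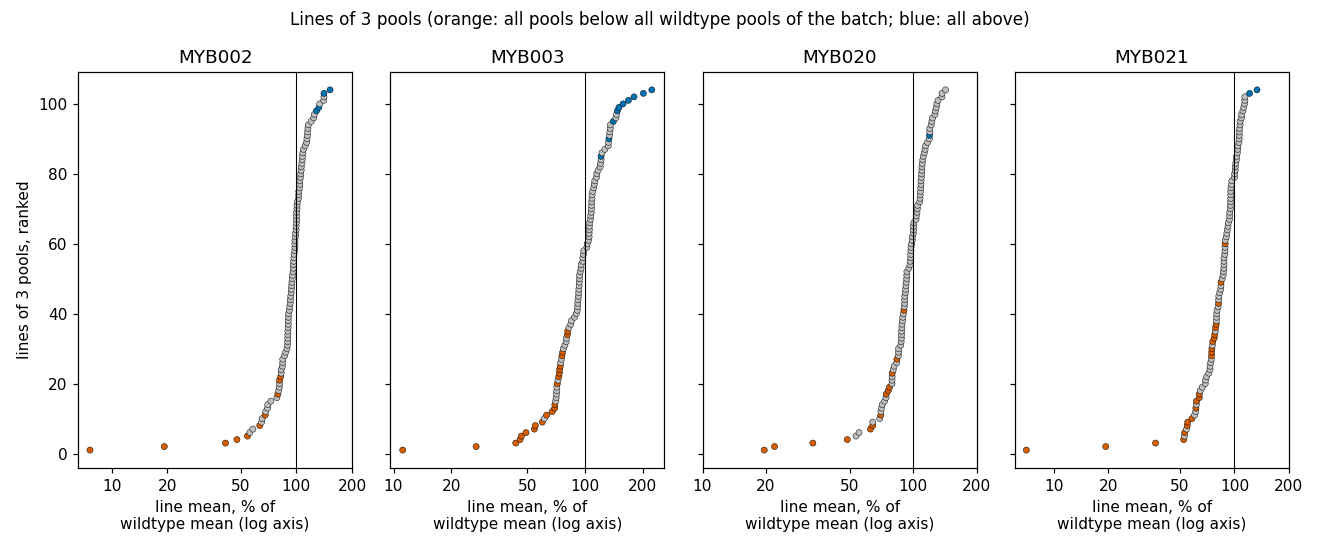
Mean of each line of 3 pools as a percentage of the wildtype mean of its batch (log axis), ranked from low to high for each member over 104 lines; orange marks lines with all pools below all wildtype pools and blue those with all pools above. The lowest point of every panel is line 7 of i19, at 7.04% in MYB021 and 19.6% in MYB020.

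The highest MYB002 (18.4 CPM) and MYB003 (33.1 CPM) of any library were in pool 6-1 of a44, a construct for MYB090. The highest MYB020 was in pool 10-2 of a47 (9.68 CPM), and the highest MYB021 was in a wildtype pool, pool 3 of NSF5 (68.1 CPM). Construct a44 had the highest group mean of MYB002 (14.0 ± 3.18 CPM), MYB020 (6.97 ± 1.57 CPM) and MYB021 (52.8 ± 7.92 CPM; SD, n = 9 each). None of these passed against NSF2 wildtype, with log2 fold changes of 0.25, 0.31 and 0.21. For MYB003, the highest group mean was that of i53, followed by a44 (21.99 ± 5.45 CPM; SD, n = 9). Set against its own wildtype, a44 had a log2 fold change of 0.45 in MYB003 (95% interval -0.00084 to 0.90; adjusted p = 0.84).

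Group means of the members spanned about the same range. From the lowest to the highest of 51 groups, they differed by 3.69-fold in MYB002, 3.47-fold in MYB003, 3.36-fold in MYB020 and 3.15-fold in MYB021. In the order of these means, 0 of the 50 steps between neighbours exceeded the larger SD of the 2 groups, for each member. Neighbouring groups could thus not be told apart by their spread, but with 51 groups in this range the steps are small in any case. These means are not set against wildtype and include differences between batches.

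Wildtype itself differed between batches. MYB003 passed the test across the wildtype of the 6 batches (adjusted p = 0.037), where 54.5% of genes passed. Its means were 16.6 ± 1.32 CPM in NSF1, 16.0 ± 3.44 in NSF2, 10.9 ± 0.86 in NSF3, 11.4 ± 2.54 in NSF4, 13.1 ± 3.50 in NSF5 and 10.9 ± 0.84 in NSF6 (SD, n = 3 each). NSF6, the batch of i53, and NSF3 had the lowest wildtype means of MYB003, and the i53 pools at 18.4 to 26.4 CPM also lay above the mean of every other wildtype group. They did not lie above every wildtype pool of other batches, since pool 2 of NSF2 wildtype had 19.95 CPM. The call was lost when wildtype pool 1, 2 or 3 of every batch was left out, with adjusted p between 0.096 and 0.15.

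The other members did not pass across batches. MYB002 wildtype means ran from 7.02 ± 2.46 CPM in NSF4 to 11.9 ± 2.23 CPM in NSF2 (adjusted p = 0.11). MYB020 means ran from 3.18 ± 1.01 CPM in NSF4 to 5.59 ± 1.25 CPM in NSF2 (adjusted p = 0.12). MYB021 means ran from 33.3 ± 9.58 CPM in NSF4 to 47.2 ± 21.5 CPM in NSF5 (SD, n = 3 each; adjusted p = 0.54). The planting batch includes season and harvest time, which cannot be told apart here.

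The members varied together across groups. Over the 51 group means of log2 CPM, centred on the mean of their batch, MYB002 and MYB021 had a Pearson correlation of 0.90. It was 0.83 between MYB002 and MYB020, 0.79 between MYB020 and MYB021, 0.73 between MYB003 and MYB020, 0.68 between MYB002 and MYB003, and 0.62 between MYB003 and MYB021. Without i15 these were 0.83, 0.74, 0.67, 0.61, 0.52 and 0.42, in the same order. The points share wildtype pools and batches, and the values describe these groups only. Among 25797 genes, MYB021 ranked as gene 7 in likeness to MYB002, and MYB002 as gene 4 in likeness to MYB021. Within the other pair, MYB020 ranked as gene 67 in likeness to MYB003, and MYB003 as gene 283 in likeness to MYB020. Across pairs, MYB002 ranked nearer to MYB020, as gene 6, while MYB020 ranked as gene 251 in likeness to MYB002.

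**Figure D5:**
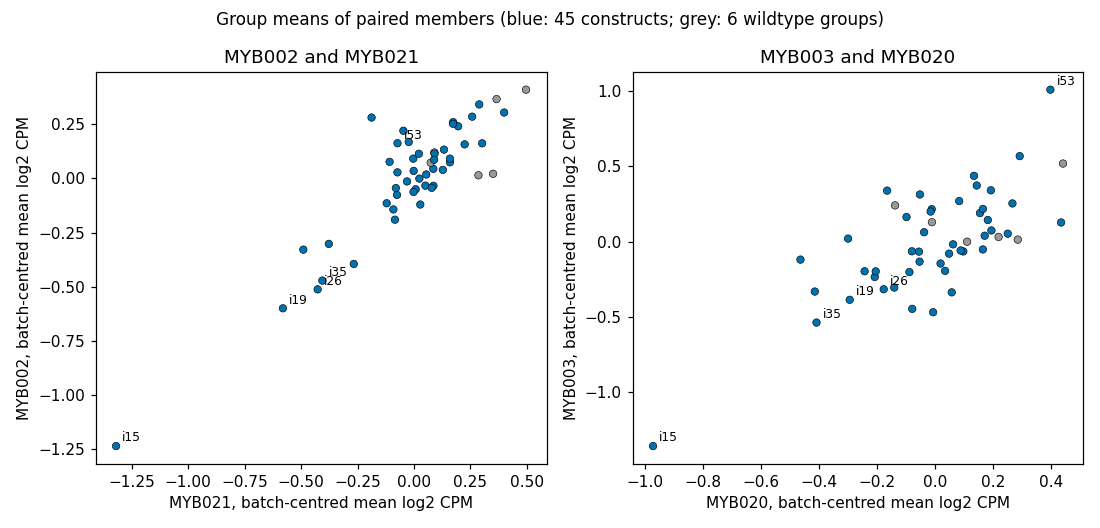
Batch-centred group means of log2 CPM for MYB002 against MYB021 (left) and MYB003 against MYB020 (right), with 45 constructs in blue and 6 wildtype groups in grey. i15 lies lowest in both panels, and i53 is highest in MYB003.

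Within batches, over single libraries, MYB002 and MYB021 correlated most closely in NSF5 (0.95, 84 libraries) and NSF6 (0.95, 63 libraries) and least in NSF1 (0.57, 32 libraries). MYB003 and MYB021 had 0.20 in NSF2 (93 libraries) and 0.89 in NSF5. The batches with the closest correlations are those that hold line 7 of i19, line 3 of i15 and pool 8-2 of i21.

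The genes whose pattern was most like that of a member, outside the 4, were Potri.008G049000 (correlation 0.93) and Potri.016G144100 (0.91) for MYB002, and Potri.016G144100 (0.93) and Potri.T059900 (0.92) for MYB021. For MYB020 they were Potri.016G144100 (0.86) and Potri.008G032700 (0.84), and for MYB003 they were Potri.002G038400 (0.84) and Potri.001G138800 (0.84), each over 51 groups. Without i15, the 2 nearest genes of MYB002, MYB020 and MYB021 were again these, while those of MYB003 were Potri.006G058400 (0.78) and Potri.002G038400 (0.76). Potri.016G144100 was among the nearest genes of MYB002, MYB020 and MYB021 but not of MYB003. The files give these identifiers no names.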

How the data were processed

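RNA-seq libraries were made by the authors with the TruSeq kit from stem-differentiating xylem and sequenced on the Illumina GAIIx platform. Reads were mapped with Bowtie and TopHat to the P. trichocarpa genome version 3.0 and reads per gene were counted with BedTools. Raw counts were deposited, with a column for every library, before the authors' own normalization. Tool versions, strand setting and treatment of multiply mapped reads are not given in the sources used here. Of 41334 genes, 531 had no count in any library. A library of a12 whose pool number differs between label and column was used as a pool of its construct. None of the 41334 identifiers matched the reference table of 34621 genes, which counts as 0 matches, so gene names other than those of the 4 members were not used. The names of the members were taken as assigned to their identifiers and could not be checked.

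CPM were computed with TMM factors over all 378 libraries (log2 CPM with a prior count of 2). Tests used R 4.3.3 with edgeR 4.0.16 on the counts of the compared groups (filterByExpr, TMM, glmQLFit and glmQLFTest, Benjamini-Hochberg adjustment, threshold 0.05), each construct against the wildtype of its batch. Further tests were made across the wildtype batches, across the lines of i53 and of i56, of i56 against a54, and of the interaction of i53 and a52. Ratios within pairs (counts plus 0.5) were tested by 2-sided exact permutation in SciPy 1.17.1. Likeness is the Pearson correlation over batch-centred group means among genes of at least 1 CPM on average, and the 2 most alike genes per member were named. Alternatives were RLE factors, DESeq2 1.42.0, no filter, pools of a line summed, a fit of the whole batch, the pool number as a block, and left-out pools and lines. Simulated counts with independent pools were used to try the tests of i53 and a52 against wildtype with edgeR, DESeq2, the pool block and summed pools. The tests across wildtype batches, across the lines of i53 and of the interaction were tried in the same way. The fit of a whole batch, RLE factors, the setting without a filter and i56 against a54 were not. Figures used matplotlib 3.10.9. The members, lists and tests were chosen with earlier results of these data known. Lists of secondary wall genes and cell type markers could not be used, since the identifiers have no names.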

Additional observations from a re-analysis of the deposited data

Results flagged for a closer look

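Each member was examined in every group of 4 to 10 pools for a single pool far from the others, by the gap to the nearest pool against the whole range of the group (Dixon's test at the 95% level). Of 132 combinations of gene and group, 15 had such a pool, where independent and normally spread pools would give about 1 in 20, or 6.6. The members vary together, and some pools were counted for more than 1 member. Groups also hold several lines, so 6.6 is a rough guide only. The pools below are given with no test of what set them apart.

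Pool 8-2 of i21 was far below the other 7 pools of its construct in 3 members, with 0.104 CPM of MYB002 (others 7.01 to 9.64 CPM), 0.726 CPM of MYB003 (others 10.7 to 14.1 CPM) and 0.104 CPM of MYB020 (others 3.03 to 5.00 CPM). Its whole profile had a correlation of 0.66 with the median of its group. Pool 13-1 of a43 had 2.34 CPM of MYB002 (others 8.32 to 13.0 CPM) and 11.1 CPM of MYB003 (others 18.2 to 22.2 CPM), with a profile correlation of 0.77 and 2.12 M counts, the fewest of any library. Pool 10-2 of a12 had 6.15 CPM of MYB002 (others 8.08 to 9.09 CPM) and 26.5 CPM of MYB021 (others 36.1 to 41.7 CPM), with a profile correlation of 0.88. Pool 1-3 of i30 had 4.32 CPM of MYB002 (others 7.58 to 9.95 CPM) and 17.1 CPM of MYB021 (others 28.3 to 37.97 CPM), with a profile correlation of 0.90.

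The remaining pools stood apart in a single member. MYB020 was low in pool 10-3 of i26, at 0.729 CPM (others 1.82 to 2.85 CPM). MYB020 was high in pool 12-2 of a40 at 8.94 CPM (others 4.57 to 6.04 CPM), in pool 8-1 of i34 at 5.91 CPM (others 2.61 to 4.0012 CPM) and in pool 7-2 of o65 at 5.36 CPM (others 3.32 to 4.20 CPM). MYB003 was high in pool 30-2 of o66 at 17.1 CPM (others 11.7 to 13.8 CPM), and MYB021 in pool 10-3 of a41 at 62.6 CPM (others 35.7 to 49.0 CPM). Their profile correlations were 0.94 in the pool of i26 and 0.98 in each of the other 5.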

How the results depend on the processing

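The rise of MYB003 in i53 stayed past the threshold under 23 of 25 alternatives, and all 25 gave log2 fold changes between 0.85 and 1.16. The call was lost only in the fit of all groups of NSF6 (1.01, adjusted p = 0.39) and in that fit without i15 (1.01, adjusted p = 0.20). The cause was not tested for this or for any change below. MYB021 in i53 had log2 fold changes of -0.84 in line 5 alone, -0.91 in line 10 alone and -0.88 without line 7, all past the threshold, and of 0.0993 in line 7 alone. MYB002 in i53 was below 0 and short of the threshold under all 25 alternatives. MYB020 in i53 ranged from -0.0395 to 0.32 when single pools were left out.

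Counts of genes called depended on single pools and on the tool. In i53, 1624 genes were called, against 2520 by DESeq2, 872 with the pools of a line summed, 221 in the fit of the whole batch, 245 in that fit without i15, 537 in line 5 alone and 650 without line 7. With single pools left out the count ran from 506 to 1853, and it was 506, 701 or 729 without wildtype pool 1, 2 or 3. In i56, 2 genes were called, against 302 by DESeq2, 1 with no filter, 1 with the pools of a line summed, 6 in the fit of the whole batch, 30, 40 and 1 without lines 10, 3 and 8, and 0, 19 and 10 in lines 10, 3 and 8 alone. With single pools left out of i56 and its wildtype the count ran from 0 to 18. DESeq2 called 68 genes in a52 and 683 in a54, and the fit of the whole batch 6 in a54. With single pools left out the counts ran from 0 to 272 in a52 and from 0 to 117 in a54, both highest without wildtype pool 2.

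Values near 0 changed sign without passing the threshold. In i56, MYB003 was 0.0685 and MYB020 0.13 in line 3 alone, MYB020 was 0.0028 without line 8, and MYB002 was 0.14 in line 10 alone, 0.0222 in line 8 alone and 0.0792 without line 3. With single pools left out, MYB002 in i56 ranged from -0.23 to 0.0754, MYB003 in a54 from -0.32 to 0.0788, MYB003 in i56 minus a54 from -0.27 to 0.0193, and the MYB021 difference between i53 and a52 from -0.39 to 0.26. In i19, without lines 15, 4 and 8, MYB002 was -0.12, -0.0751 and -0.17 and MYB003 was -0.0248, -0.0184 and -0.10. Without line 7, MYB020 was 0.11 and MYB021 was 0.0149. Without single wildtype pools, MYB002 in i19 ranged from -0.15 to 0.15 and MYB003 in i19 from -0.12 to 0.25. The log2 ratio of MYB003 to MYB020 in i56 differed from wildtype by -0.0067 when formed from CPM plus 1.

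Of the other 41 constructs, DESeq2 called MYB003 in 3 and MYB021 in 3. The fit of the whole batch called MYB002 in 2, MYB003 in 1, MYB020 in 1 and MYB021 in 2, and with the pools of a line summed MYB021 was called in 0. With wildtype pool 1, 2 or 3 left out, MYB003 was called in 0 to 1 and MYB021 in 1 to 4, both highest without pool 2. Between wildtype batches, the span of MYB003 was 0.60 with no filter (adjusted p = 0.060), and with pools left out it ran from 0.70 to 0.77, while that of MYB002 ran from 0.55 to 1.17 and passed without pool 1 of every batch (adjusted p = 0.049). The difference of MYB021 between the lines of i53 passed with no filter (span 1.0107, adjusted p = 0.046).

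Constructs and wildtype share pool numbers, but their deviations correlated between -0.18 and 0.61 in pools of the same number and not all above 0.1, so the numbers were not taken as pairs. With the pool number as a replicate block, MYB003 in i53 had an adjusted p of 0.0017, MYB003 between wildtype batches a span of 0.63 (adjusted p = 0.060), and 1423 genes were called in i53, 0 in i56, 0 in a52 and 2 in a54. Each comparison rested on 3 wildtype pools, whose spread enters every interval.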
